A study of Gallus gallus with 205 samples.

Results

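Organizer and node genes were followed across single cells of the early chicken embryo. The set is a named list of 9 genes, all found in both count tables, among the 20581 genes complete in both. By role, CHRD, NOG and FST encode secreted antagonists, ADMP and SHH encode secreted ligands, and GSC, FOXA2, GNOT1 and LHX1 encode transcription factors. GNOT1 is a synonym of NOTO in RefSeq's GRCg7b gene table, the other 8 members matched that table by symbol, and all are protein coding.

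The cells came from White Leghorn embryos at Hamburger-Hamilton stage 4, from eggs incubated for 20 to 27 h, with no treatment or allele named. Primitive streak cells carry 4 title series, with 27 in cPS, 37 in cPS1, 59 in cPS2 and 52 in cPS3. The 30 cells titled cSR came from the area pellucida around the streak, and 6 of them also carry an epiblast label. The labels name no embryo, and the streak cells are not labelled by their position along the streak, so each title series is treated as 1 sample and no test was made over cells.

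In amniotes the organizer lies at the anterior end of the primitive streak, the node, and its cells give rise to prechordal mesoderm, notochord and part of the definitive endoderm. Chordin, noggin and follistatin bind ligands of the TGF-beta family, chiefly BMPs for chordin and noggin and activin for follistatin, and keep them from their receptors. Goosecoid, FOXA2, the Not homeodomain protein and LHX1 are textbook transcription factors of the organizer and of its prechordal and notochordal descendants, and SHH is the midline signal that patterns the overlying neural plate.

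Median totals per series lay between 2262998 and 2663855 expected counts per cell, and single cells ranged from 201170 to 4552697. Values are counts per 1000000 counts in the 20581 genes (CPM), a cell is said to detect a gene at 10 CPM or more, and pooled CPM is the summed count of a series over its summed totals. Shares carry 95% exact Clopper-Pearson intervals, which cover counting error only. No lengths are given, so levels are compared within a gene and not between genes. Library identifiers fall into 4 consecutive blocks: cPS and cSR share blocks 1 and 2, cPS1 lies in block 3, cPS2 in blocks 3 and 4, and cPS3 in block 4. The streak marker T (brachyury) was detected in 173 streak cells, all but 2, and also in 29 of 30 cSR cells, and its pooled level was 2085 CPM in the streak and 1194 CPM in cSR. EOMES, also a streak gene, was detected in 64% of streak cells and 33.3% of cSR cells.

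**Figure D1:**
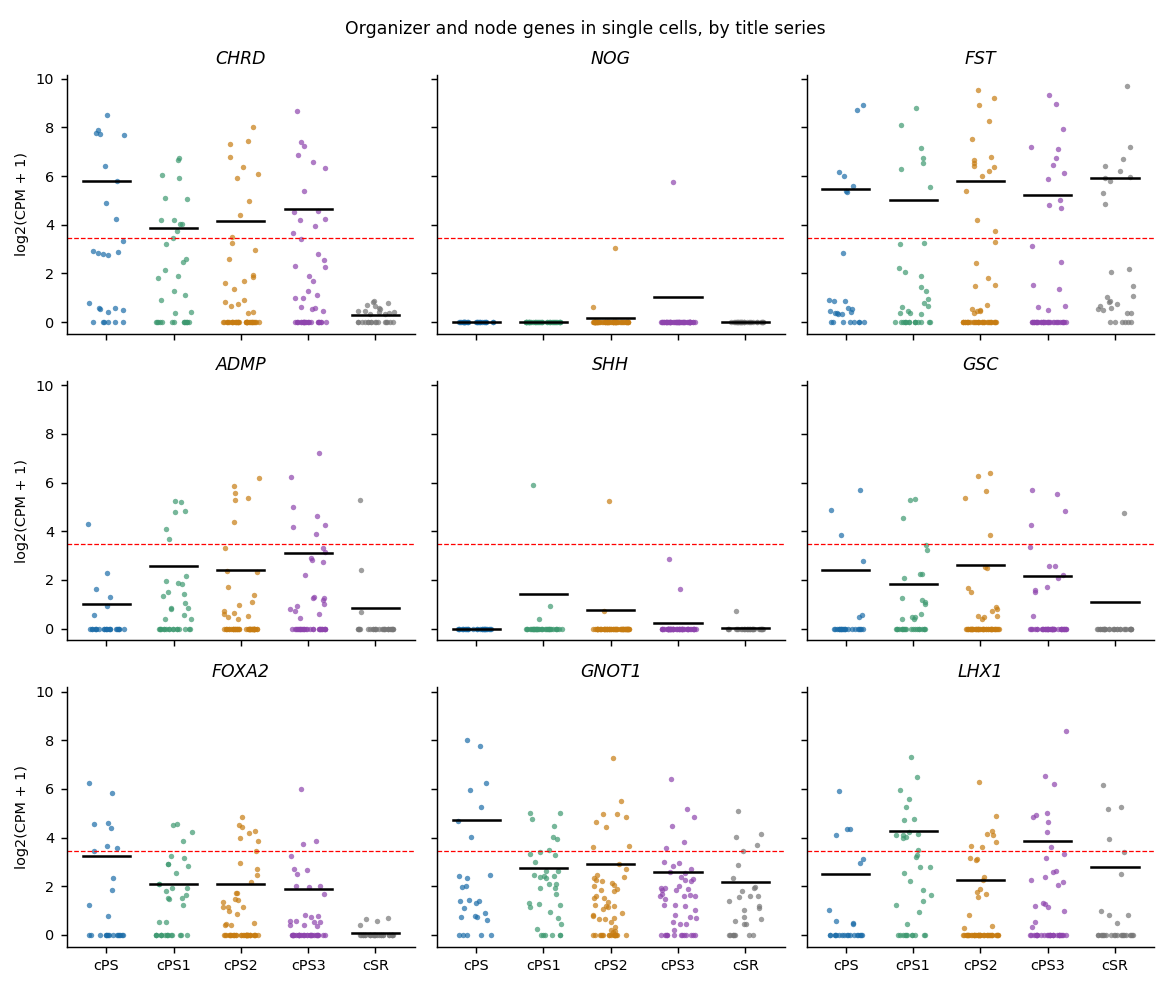
Each point is 1 cell, by title series on the x axis, with log2(CPM + 1) of the named gene on the y axis. Black bars mark the pooled CPM of the series and the dashed red line marks 10 CPM. CHRD and FOXA2 pass the line in all 4 streak series and in no cSR cell, FST passes it in every series, and NOG and SHH pass it in 1 and 2 cells.

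CHRD, the BMP antagonist chordin, was detected in all 4 streak series and in none of the surrounding cells. In cPS it spanned 0 to 366 CPM with a median of 6.01 CPM, and 9 of 27 cells (33.3%, 16.5 to 53.96%) detected it. In cPS1 it spanned 0 to 107.4 CPM with a median of 1.41 CPM, and 12 of 37 cells (32.4%, 18.01 to 49.8%) detected it. The share intervals of these series overlap almost entirely, but the cPS cells that detected CHRD had a median of 203 CPM and those of cPS1 a median of 25.1 CPM. In cPS2 it spanned 0 to 259 CPM with a median of 0, and 10 of 59 cells (16.9%, 8.44 to 28.97%) detected it. In cPS3 it spanned 0 to 405 CPM with a median of 0.47 CPM, and 13 of 52 cells (25%, 14.03 to 38.9%) detected it. In cSR it spanned 0 to 0.85 CPM, with 16 counts spread over 14 cells, and 0 of 30 cells reached 10 CPM. The exact interval of that share ends at 11.6%, and the approximate limit of 3 over the number of cells is 10%.

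Most streak cells therefore held little or no CHRD, and a minority held a great deal of it. Pooled CHRD was 54.6 CPM in cPS, 13.4 CPM in cPS1, 16.6 CPM in cPS2, 24.4 CPM in cPS3 and 0.23 CPM in cSR. The order of the 4 streak series by pooled level is not their order by share, and all 4 share intervals overlap, so no order among them is read. The single highest cell supplied 31.1% of the CHRD counts of cPS and 33.2% of those of cPS3. Cells lay on both sides of the 10 CPM line without a gap: the lowest detecting cell had 10.1 CPM, the highest cell below had 9.75 CPM, and 52 streak cells had values above 0 that did not reach 10 CPM.

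NOG, the BMP antagonist noggin, was nearly absent. It had 0 counts in cPS and cPS1, 2 cells above 0 in cPS2 at 7.32 and 0.56 CPM, 1 cell in cPS3 at 53.5 CPM, and 0 counts in cSR. That cell, cPS3_159, was also the cell with the most CHRD in any series.

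FST, the activin-binding antagonist follistatin, was detected both in the streak and around it. Detecting cells numbered 7 in cPS (25.9%), 7 in cPS1 (18.9%), 15 in cPS2 (25.4%), 12 in cPS3 (23.1%) and 10 in cSR (33.3%, 17.3 to 52.8%). Maxima were 482 CPM in cPS, 448 CPM in cPS1, 737 CPM in cPS2, 644 CPM in cPS3 and 824 CPM in cSR, and the series medians lay between 0 and 0.93 CPM. A few cells carried the level of a whole series. In cPS, the cell cPS_01 supplied 51.9% of the FST counts, without which pooled FST was 21.7 CPM and not 43.1 CPM, and in cSR the cell cSR_09 supplied 67.1%, without which pooled FST in cSR was 20.9 CPM and not 60.3 CPM.

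ADMP, a BMP-family ligand that in frog embryos is made in the organizer itself, was detected in 1 cell of cPS (3.70%), 6 of cPS1 (16.2%, 6.19 to 32.01%), 6 of cPS2 (10.2%), 7 of cPS3 (13.5%) and 1 of cSR (3.33%). Its highest cells had 18.9 CPM in cPS, 37.3 CPM in cPS1, 71.1 CPM in cPS2, 148.2 CPM in cPS3 and 37.4 CPM in cSR. The cPS3 maximum supplied 48.8% of that series' counts, so that pooled ADMP there was 7.54 CPM with it and 3.96 CPM without, and the intervals of all 5 series overlap. SHH reached 10 CPM in only 2 cells of the 5 series, cPS1_09 at 59.4 CPM and cPS2_83 at 37.03 CPM. It had 0 counts in cPS, a maximum of 6.29 CPM in cPS3 and 1 count in the whole of cSR. Both SHH cells detected CHRD and 3 further members each.

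GSC, the homeodomain repressor goosecoid, was detected in 3 cells of cPS (11.1%), 3 of cPS1 (8.11%), 5 of cPS2 (8.47%), 4 of cPS3 (7.69%) and 1 of cSR (3.33%). Maxima were 51.2 CPM in cPS, 39.1 CPM in cPS1, 82.01 CPM in cPS2, 51 CPM in cPS3 and 25.8 CPM in cSR. The one cSR cell, cSR_20, held every GSC count of that series, whereas 52 streak cells had counts above 0.

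FOXA2, a forkhead factor of node, notochord and endoderm, was the only other member besides CHRD with detecting cells in every streak series and in no cSR cell. In cPS it spanned 0 to 74.8 CPM with a median of 0, and 8 of 27 cells (29.6%, 13.8 to 50.2%) detected it. In cPS1, 4 of 37 cells (10.8%) detected it, with a maximum of 22.6 CPM and a median of 1.76 CPM. In cPS2, 7 of 59 cells (11.9%) detected it, with a maximum of 27.7 CPM. By identifier block, FOXA2 was detected in 1 of 31 cPS2 cells in block 3 and 6 of 28 in block 4. In cPS3, 3 of 52 cells (5.77%, 1.21 to 15.9%) detected it, with a maximum of 63.2 CPM that supplied 50.2% of the counts, and pooled FOXA2 there was 2.72 CPM with that cell and 1.39 CPM without. In cSR 4 cells had counts above 0, the highest at 0.60 CPM.

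GNOT1, the homeodomain factor of node and notochord, was detected in 7 cells of cPS (25.9%), 7 of cPS1 (18.9%), 9 of cPS2 (15.3%), 6 of cPS3 (11.5%) and 5 of cSR (16.7%). Maxima were 260 CPM in cPS, 31.4 CPM in cPS1, 154.1 CPM in cPS2, 82.9 CPM in cPS3 and 32.7 CPM in cSR. The high values separated more than the shares did: pooled GNOT1 was 25.1 CPM in cPS, between 4.95 and 6.45 CPM in cPS1, cPS2 and cPS3, and 3.49 CPM in cSR. The cell cPS2_84 supplied 39.8% of the cPS2 counts, and 3.95 CPM remained there without it. In cPS, cPS_26 and cPS_10 had 260 and 215 CPM, and their CHRD was at 209.8 and 234 CPM.

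LHX1, a LIM-homeodomain factor that in the mouse is needed for head formation, was detected in 4 cells of cPS (14.8%, 4.19 to 33.7%), 14 of cPS1 (37.8%, 22.5 to 55.2%), 8 of cPS2 (13.6%, 6.04 to 24.98%), 9 of cPS3 (17.3%) and 4 of cSR (13.3%). Maxima were 59.2 CPM in cPS, 160 CPM in cPS1, 76.5 CPM in cPS2, 332 CPM in cPS3 and 70.8 CPM in cSR. The share was highest in cPS1, whose interval overlaps that of each other series. Within identifier block 3, pooled LHX1 was 18.1 CPM in the 37 cPS1 cells and 3.55 CPM in the 31 cPS2 cells. The highest cell, cPS1_11, supplied 37.5% of the cPS1 counts, and 11.8 CPM remained without it. In cPS3 the cell cPS3_159 supplied 49.1%, and pooled LHX1 was 13.5 CPM with it and 7.02 CPM without.

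**Figure D2:**
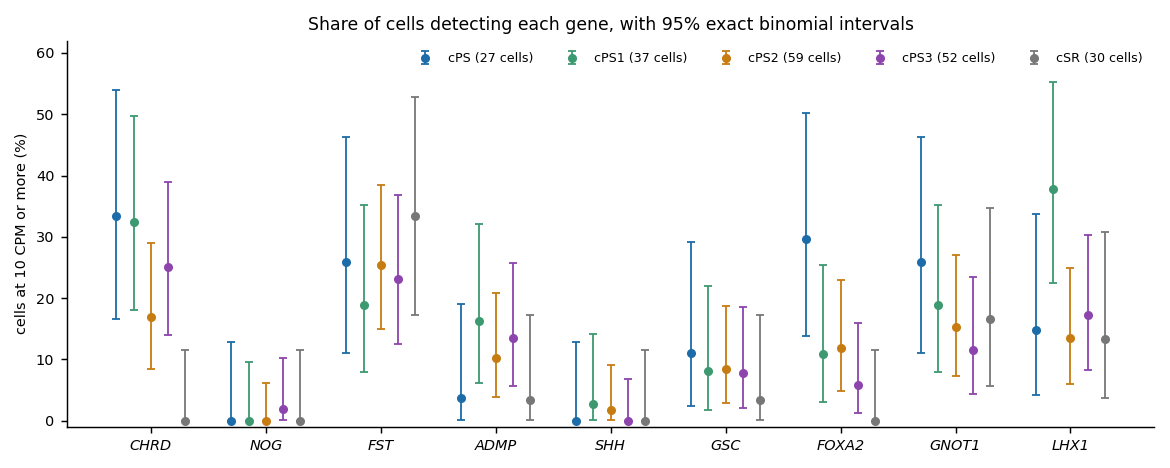
The y axis gives the percentage of cells at 10 CPM or more for each gene on the x axis, with cPS, cPS1, cPS2, cPS3 and cSR from left to right. Points are the shares and bars are 95% exact binomial intervals. CHRD and FOXA2 are at 0 in cSR, FST is at 33.3% there, and the intervals of the 4 streak series overlap for every gene.

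The comparison of cPS with cSR asks which organizer genes were concentrated in the streak, and it uses the one streak series that shares its identifier blocks with the surrounding cells. CHRD, FOXA2, GNOT1 and GSC, 4 of the 9, were at least 2-fold higher in pooled CPM, and none of the 9 was 2-fold lower. Over all 20581 genes, 8.03% were at least 2-fold higher and 9.71% at least 2-fold lower in cPS. Of the 5 members at 5 CPM or more in either tissue, 3 were higher and none lower, where 11.7% of the 9698 genes at that level were higher and 14% lower. The median log2 ratio of those 5 members was 2.54, and that of the 9698 genes was -0.04. CHRD, FOXA2 and GNOT1 reached 5 CPM only in cPS, where they are high, and LHX1 only in cSR. That count and median are therefore partly set by the filter, and the members were chosen with earlier results of these data known.

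Ratios carry a pseudocount of 1 CPM, so those of weakly expressed genes come out too small. The log2 ratio of cPS over cSR was 5.50 for CHRD, with 5.46 in block 1 and 5.61 in block 2. For FOXA2 it was 3.15, with 3.12 and 3.24 in the same blocks. For GNOT1 it was 2.54, with 2.30 and 2.82, and for GSC it was 1.33, with 1.13 and 1.04. All 4 ratios were thus at least 2-fold within each block. In block 2, however, GSC was at 1.05 CPM in cPS, on 1 detecting cell of 11, and at 0 in cSR. Its ratio there depends on the pseudocount. GSC rested on 3 detecting cells in cPS and 1 in cSR, and without the highest cell of each series it was at 1.85 CPM in cPS and 0 in cSR.

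FST and LHX1 had no stable direction. The log2 ratio of FST was -0.48, with -1.04 in block 1 and 0.43 in block 2, and it was 0.05 once the highest cell of each series was left out. For LHX1 the ratio was -0.27, with -0.87 in block 1 and 0.32 in block 2. For ADMP it was 0.14 on 1 detecting cell in each tissue. SHH and NOG were at or below 1 count in both tissues, so they are given no ratio.

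Set against cSR, the other streak series kept the direction of cPS for CHRD, FOXA2, GNOT1 and GSC, with no identifier block shared with cSR. The CHRD log2 ratio was 3.55 with cPS1, 3.84 with cPS2 and 4.37 with cPS3, and that of FOXA2 was 1.99, 1.99 and 1.796. GNOT1 gave 0.59, 0.73 and 0.41, below 2-fold in each. GSC gave 0.77, 1.54 and 1.06, and FST gave -0.91, -0.16 and -0.71. For FST the cell cSR_09 supplied 67.1% of the cSR counts. Without it cSR was at 20.9 CPM, below pooled FST in cPS1 (31.6 CPM), cPS2 (54.03 CPM) and cPS3 (36.6 CPM). Without their own highest cells these were at 19.6, 40.1 and 28.2 CPM, so no direction is read for FST. ADMP gave 1.71, 1.56 and 2.23, and LHX1 gave 1.48, -0.50 and 1.08. These ratios all use the same cSR cells, and the series and the block cannot be told apart for cPS1 and cPS3.

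Co-detection shows which members were found in the same cells. Among streak cells, 66 detected no member, 61 detected 1, 18 detected 2, and 30 detected 3 or more (17.1%, 11.9 to 23.6%). Cells with 3 or more were found in every streak series, 8 in cPS (29.6%), 9 in cPS1 (24.3%), 5 in cPS2 (8.47%) and 8 in cPS3 (15.4%), and there were 0 among the 30 cSR cells, where 5 cells detected 2 members. The 30 cells were not deeper than the rest: their median total was 2284065 counts with 4761 genes detected, against 2533987 counts and 4749 genes in the other streak cells.

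CHRD was part of 27 of these 30 combinations (90%). FST was part of 19, LHX1 of 17, FOXA2 and GNOT1 of 14 each, and ADMP and GSC of 9 each. The 30 cells were chosen by a count that includes these genes. CHRD was detected in the most streak cells of the 9 (44, and FST in 41), so its share here is partly set by that choice. The fullest cells had 6 members. In cPS2_104 these were CHRD at 259 CPM, FST at 109.1 CPM, LHX1 at 76.5 CPM, ADMP at 71.1 CPM, GNOT1 at 28.1 CPM and FOXA2 at 13.7 CPM. In cPS3_159 they were CHRD at 405 CPM, LHX1 at 332 CPM, FST at 136.96 CPM, NOG at 53.5 CPM, GSC at 27.6 CPM and FOXA2 at 13.6 CPM, while GNOT1 was at 0.65 CPM and ADMP at 0. The cells therefore did not share 1 fixed combination. cPS_10, for instance, had CHRD at 234 CPM, GNOT1 at 215 CPM and FOXA2 at 74.8 CPM with FST and LHX1 at 0, whereas cPS_20 had CHRD at 203 CPM, FST at 425 CPM and LHX1 at 16.2 CPM with FOXA2 and GNOT1 at 0.

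**Figure D3:**
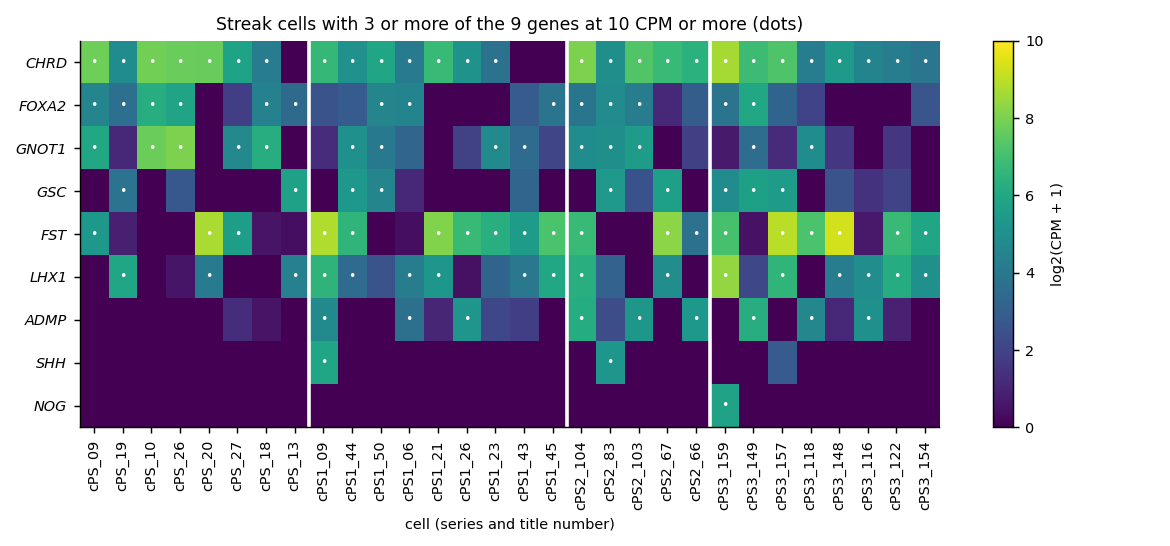
Columns are the 30 streak cells that detected 3 or more of the 9 genes, in the order cPS, cPS1, cPS2 and cPS3 with white lines between series; rows are genes, colour is log2(CPM + 1), and dots mark 10 CPM or more. The CHRD row, itself counted in choosing the cells, has a dot in 27 of the 30 columns, and the dots in the other rows differ from cell to cell.

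Relative to CHRD, 5 of the 6 members with enough cells to compare had a share at least 2 times as high in the 44 CHRD-detecting cells as in the other streak cells. The exception was LHX1, just under that line. Without series cPS, GNOT1 was under it instead, with 22.9% of CHRD cells and 12.4% of others, and LHX1 passed it, with 34.3% and 16.8%. Of the 10270 genes detected in at least 5% of streak cells, 3.48% passed it, and 0.789% had a share at least 3 times as high, as FST, GSC and FOXA2 had. Genes detected in most of the other cells could not pass either line, whatever their relation to CHRD. The members were found in few of those cells, so these all-gene shares are not a like-for-like baseline for them. GSC was detected in 11 CHRD cells (25%, 13.2 to 40.3%) and in 3.05% of other cells (0.84 to 7.63%). FOXA2 was detected in 13 CHRD cells (29.5%, 16.8 to 45.2%) and in 6.87% of other cells (3.19 to 12.6%). FST was detected in 21 CHRD cells (47.7%, 32.5 to 63.3%) and in 15.3% of other cells (9.58 to 22.6%). For these 3 genes the 2 intervals do not overlap. How many of all genes do the same was not counted, and the intervals cover counting error only, so nothing is called from this.

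ADMP was detected in 10 CHRD cells (22.7%, 11.5 to 37.8%) and in 7.63% of other cells (3.72 to 13.6%), where the intervals overlap slightly. GNOT1 was detected in 13 CHRD cells (29.5%) and in 12.2% of other cells, and LHX1 in 14 CHRD cells (31.8%, 18.6 to 47.6%) and in 16.03% of other cells (10.2 to 23.5%). For both, the intervals overlap. By series, FST was found beside CHRD in 5 of 9 cPS cells with CHRD, 5 of 12 in cPS1, 4 of 10 in cPS2 and 7 of 13 in cPS3. GSC was found beside it in 1 of 9, 2 of 12, 4 of 10 and 4 of 13, and GNOT1 in 5 of 9, 3 of 12, 3 of 10 and 2 of 13. In single series 2 members were found less often beside CHRD than elsewhere: LHX1 in cPS1, in 33.3% of CHRD cells and 40% of other cells, and ADMP in cPS, in 0 of 9 CHRD cells and 5.56% of other cells. GSC in cPS was in 11.1% of both. Median totals were 2415460 counts in CHRD cells and 2504360 counts in other streak cells.

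**Figure D4:**
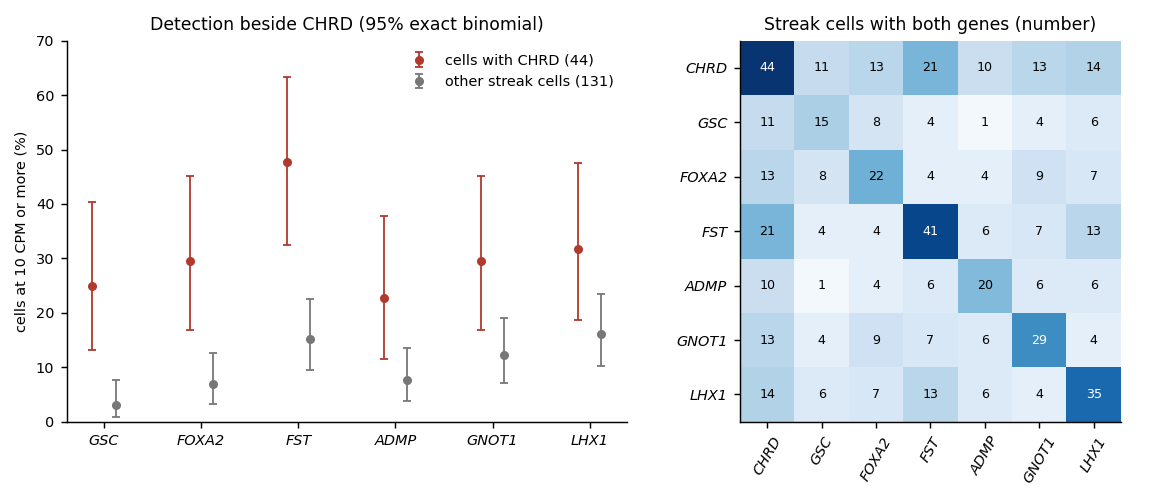
Left, the percentage of cells at 10 CPM or more for 6 genes in the 44 CHRD-detecting streak cells (red) and the other streak cells (grey), with 95% exact binomial intervals. Right, the number of streak cells detecting both genes of each pair, with the number detecting each gene on the diagonal; CHRD and FST share 21 cells and GSC and FOXA2 share 8.

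Pairs among the transcription factors were compared in the same way. FOXA2 and GSC were found together in 8 cells, so GSC was detected in 36.4% of the 22 FOXA2 cells (17.2 to 59.3%) and in 4.58% of other streak cells (1.86 to 9.20%). FOXA2 and GNOT1 were found together in 9 cells, with GNOT1 in 40.9% of FOXA2 cells (20.7 to 63.6%) and 13.1% of others. LHX1 was detected in 7 FOXA2 cells (31.8%, 13.9 to 54.9%), against 18.3% of other cells (12.5 to 25.4%), and in 6 of 15 GSC cells (40%), against 18.1% of other cells. GNOT1 and LHX1 went the other way, with LHX1 in 4 of 29 GNOT1 cells (13.8%, 3.89 to 31.7%) and 21.2% of other cells, and these intervals overlap. FST was detected in 18.2% of FOXA2 cells and 24.2% of other cells, and it was detected in 24.1% of GNOT1 cells and 23.3% of other cells. ADMP was detected in 6 of 29 GNOT1 cells (20.7%) and 9.59% of others, and in 1 of 15 GSC cells.

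Among the 44 CHRD cells, 8 detected FOXA2 or GNOT1 without FST and LHX1, 15 detected FST or LHX1 without FOXA2 and GNOT1, 9 detected genes of both kinds, and 12 none of the 4. FOXA2 or GNOT1 was detected in 37.5% of the 24 CHRD cells with FST or LHX1 and in 40% of the 20 without, so the pairs were combined about as often with each other as without. Company was found at high and low CHRD levels: 21 of 24 cells at 50 CPM or more of CHRD had another member, and so had 15 of 20 cells between 10 and 50 CPM.

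Correlations over the cells of each streak series use all levels of CHRD without a threshold. They are Spearman correlations over 27, 37, 59 and 52 cells, averaged over the 4 series, and are descriptions. The labels do not name the embryos of these cells. The cells of cPS span identifier blocks 1 and 2, and those of cPS2 span blocks 3 and 4. Over the 10270 genes the mean correlation with CHRD had a median of 0.004, a 99th percentile of 0.247 and a maximum of 0.441. It was positive in all 4 series for 8.90% of genes and negative in all 4 for 7.71%. All 6 members tested were positive on average, with a median of 0.236, and 4 of the 6 were positive in all 4 series.

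FOXA2 ranked 19th at 0.340, with 0.27 in cPS, 0.29 in cPS1, 0.39 in cPS2 and 0.41 in cPS3. In cPS2, pooled CHRD was 10.5 CPM in block 3 and 22.8 CPM in block 4, and pooled FOXA2 was 1.56 and 4.96 CPM. The cPS2 value therefore runs across a block difference in both genes. FST ranked 38th at 0.302 and ADMP ranked 96th at 0.249. GSC averaged 0.223 and LHX1 0.220, but in cPS they had -0.04 and -0.06. GNOT1 averaged 0.144, with 0.31 in cPS and 0.01 in both cPS1 and cPS3. The correlation of CHRD with the cell total averaged -0.12, from -0.27 in cPS1 to 0.14 in cPS2. That with the number of genes detected averaged 0.001, but the series differed, from -0.28 in cPS2 to 0.31 in cPS1.

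EOMES, the T-box factor that drives mesendoderm formation downstream of Nodal, had the highest correlation with CHRD, 0.441, with 0.53 in cPS, 0.57 in cPS1, 0.36 in cPS2 and 0.30 in cPS3. Over the alternatives its rank lay between 1 and 9, and it was 9 without cPS1. It was detected in 40 of 44 CHRD cells (90.9%) and in 54.96% of other streak cells. TRABD2B, a membrane metalloprotease that cleaves Wnt ligands, followed at 0.427 and was detected in 86.4% of CHRD cells and 41.98% of others. The planar cell polarity genes PRICKLE2, at 0.351, and DAAM1, a formin, at 0.361, were also among the 15 highest. Over the alternatives the rank of PRICKLE2 lay between 5 and 130, and it was 130 without cPS. That of DAAM1 lay between 8 and 38, and it was 38 without cPS3. PRICKLE2 was detected in 43.2% of CHRD cells and 9.92% of others, and DAAM1 in 100% and 87.8%. PCSK6, a convertase that cleaves Nodal and BMP precursors, had 0.354 and was detected in 65.9% of CHRD cells and 35.9% of others.

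The remaining 10 of the 15 lay between 0.351 and 0.421. They were CRHR1, a receptor for corticotropin-releasing hormone; LARP7, an RNA-binding protein; TUBB2C, a beta-tubulin (TUBB4B in RefSeq); NFASC and KIRREL3, adhesion proteins; LRIG3; COL1A2, a collagen chain; NFATC2, a calcium-regulated transcription factor; JARID2, a Polycomb component; and LOC768672, TRMT10B in RefSeq. CRHR1 and KIRREL3 were detected in only 10 streak cells each, and JARID2 had 0.02 in cPS. The 5 lowest were PPID, a cyclophilin, at -0.359, the ligand BMP7 at -0.352, LDHB, a lactate dehydrogenase subunit, at -0.347, the calcium-binding protein RGN at -0.347 and the proteasome ATPase PSMC1 at -0.347. BMP7 had -0.75 in cPS, -0.11 in cPS1, -0.37 in cPS2 and -0.17 in cPS3, and it was detected in 63.6% of CHRD cells and 77.9% of others.

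**Figure D5:**
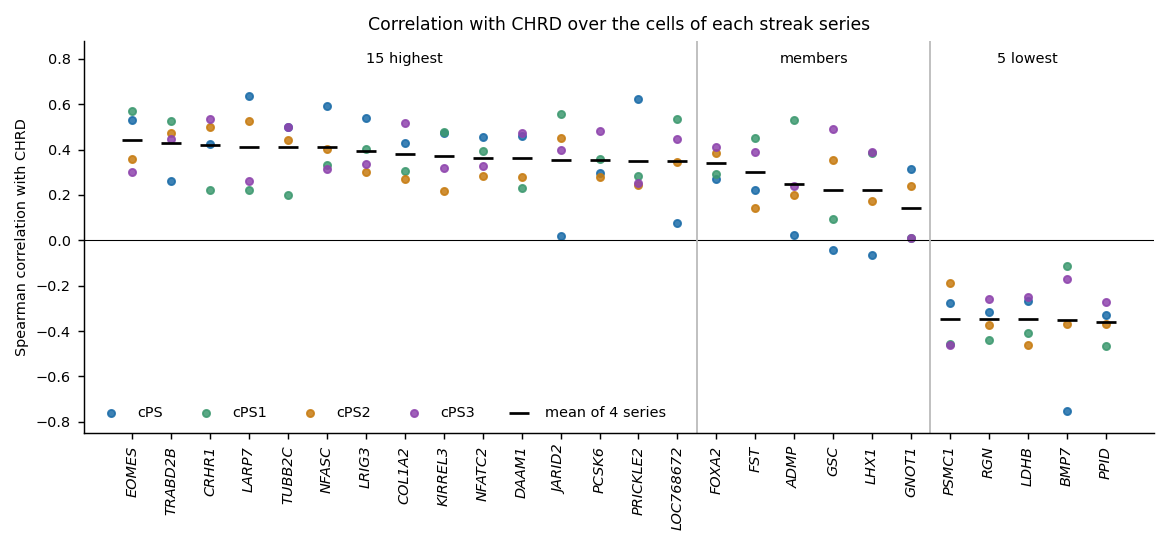
The y axis gives the Spearman correlation with CHRD over the cells of each streak series (coloured points) and its mean over the 4 series (black bars), for the 15 highest genes with 1 sign in all 4 series, the 6 members tested, and the 5 lowest genes. EOMES is at the left at 0.441, FOXA2 leads the members at 0.340, and GSC and LHX1 have a cPS point below 0.

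Genes closest to each other member were named by the same measure. FST was closest to PCSK5, a proprotein convertase, at 0.384, then FGF18, a fibroblast growth factor, at 0.367 and the kinase HIPK3 at 0.363, and FGF18 was detected in 22 of 41 FST cells. GSC was closest to the Wnt receptor FZD8 at 0.406, TRABD2B at 0.393 and FOXA2 at 0.377. FOXA2 was closest to LOC418356 (PLA2G10L in RefSeq) at 0.394, GSC at 0.377 and the tubulin-binding protein STMN1 at 0.375. GNOT1 was closest to LOC100858651, which RefSeq names CAMK2N1, an inhibitor of calmodulin-dependent kinase, at 0.447, then LOC101751783 at 0.425 and the endothelin receptor EDNRB at 0.397. LHX1 was closest to SERTM1 at 0.476 and the semaphorin receptor PLXNB2 at 0.395, and SERTM1 was detected in 31 of 35 LHX1 cells. ADMP was closest to LOC101747321 at 0.380, LOC101748364 at 0.376 and LOC101750409 at 0.371, which have no match in the gene table. Among member pairs, GSC with LHX1 at 0.294 and ADMP with GNOT1 at 0.248 were positive in all 4 series, while FST with GSC averaged -0.06 and GNOT1 with LHX1 averaged -0.10.

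Genes of the pathways these members act in were read from lists, at 5 CPM or more in cPS or cSR. Of 17 measured BMP ligands, receptors and targets, none was 2-fold higher and 4 were 2-fold lower in cPS than in cSR, with a median log2 ratio of -0.42. Of all 9698 genes at that level 11.7% were higher and 14% lower, and the list counts here and below are read against those shares: none is called particular to its list. The 4 were the BMP receptor BMPR1B at -3.69, the inhibitory SMAD6 at -1.79, the target MSX2 at -1.74 and the target ID2 at -1.06. BMPR1B was at -4.22 in block 1 and -3.10 in block 2, on 0 detecting cells in cPS and 4 in cSR. SMAD6 was at -1.50 in block 1 and -1.84 in block 2, whereas MSX2 was at -0.68 and -3.13 and ID2 at -0.92 and -1.31. With cPS1, cPS2 and cPS3 in place of cPS, ID2 was at -0.07, -0.28 and -0.22. BMPR1B was at -0.68 with cPS1, while SMAD6 and MSX2 stayed at least 2-fold lower with each of these series. Within the streak series, the median correlation of 18 BMP genes with CHRD was -0.12. Of these, 7 were negative in all 4 series, namely BMP7, BMPR1A, SMAD1, ID1, ID2, MSX1 and BAMBI, and ACVR1 alone was positive in all 4. The shares to read these counts against are 7.71% negative and 8.90% positive in all 4 series, over the 10270 genes.

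Of 8 other extracellular BMP regulators, 2 were higher in cPS, the antagonist CER1 at a log2 ratio of 1.78 and SMOC1 at 1.31, and 3 were lower, among them BMPER at -3.36 and TWSG1 at -1.66. CER1 was at 1.89 in block 1 and 0.21 in block 2. SMOC1 was at 0.90 and 1.78 in the same blocks, and TWSG1 at -2.54 and -0.84. With cPS1, cPS2 and cPS3 in place of cPS, SMOC1 was at 0.70, 1.56 and 0.59. TWSG1 was then at -0.95, -0.67 and -1.09. CER1 and SMOC1 also correlated with CHRD in all 4 series, at 0.16 and 0.22 on average. Of 7 Nodal and activin genes, PCSK6 at 2.06, the Nodal antagonist LEFTY2 at 1.72 and SMAD3 at 1.39 were higher in cPS, and SMAD2 at -1.33 was lower. SMAD2 was at -0.83 in block 2, and at 0.06, 0.16 and -0.40 with cPS1, cPS2 and cPS3 in place of cPS. LEFTY2 was at 5.75 in block 1 and 0.81 in block 2. SMAD3 was at 0.86, 1.71 and 1.14 with cPS1, cPS2 and cPS3 in place of cPS. The activin receptor ACVR2B had a correlation of 0.32 with CHRD, positive in all 4 series.

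Hedgehog pathway genes were measured although SHH was nearly absent. Of 6 measured, the receptor and target PTCH1 was higher in cPS at a log2 ratio of 1.06, and the transcription factor GLI2 at -1.83 and the co-receptor GAS1 at -1.15 were lower. PTCH1 was at 1.38 in block 1 and 0.97 in block 2, and at 0.21, 0.86 and -0.11 with cPS1, cPS2 and cPS3 in place of cPS. GAS1 was at -0.96 and -2.04 in these blocks, and at -0.98, -1.16 and -0.77 with these series. GLI2 was at -1.68 and -2.34, and at -1.16, -1.02 and -0.38. GLI1, a target of the pathway, had 0 counts in cPS and 0.16 CPM in cSR. Of 5 measured axial mesoderm and prechordal genes none was higher and the collagen COL2A1 at -2.61 and the homeodomain repressor HESX1 at -1.48 were lower. HESX1 was at -2.24 in block 1 and 0.10 in block 2. None of 6 measured LHX1 and FOXA2 cofactors differed by 2-fold; SSBP2 and TLE4 correlated with CHRD at 0.23 each, positive in all 4 series.

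Markers of other streak and germ layer cells were compared between cells with and without each member. HHEX and OTX2 were detected more often, and the posterior gene CDX4 less often, beside every member compared. They are therefore not particular to 1 member. CHRD cells, which include 11 of the 15 GSC cells, had HHEX in 36.4% against 13.7% of other streak cells. APOA1 was in 40.9% and 20.6% of the same cells. GATA6, in 59.1% and 64.1%, and RBP4, in 13.6% and 19.1%, went the other way. Detection of GSC came with some endoderm and anterior genes. HHEX was detected in 8 of 15 GSC cells (53.3%) and 16.2% of other streak cells, and APOA1 in 60% and 22.5%. GATA6 was detected in 86.7% and 60.6%, and the head gene OTX2 in 53.3% and 18.1%. Of the same endoderm list, RBP4 was detected in 40% and 15.6%, but CXCR4 hardly differed, at 53.3% and 52.5%. CER1 was detected in 66.7% of GSC cells and 30.6% of others. The paraxial mesoderm gene TBX6 ran the other way, in 53.3% of GSC cells and 88.8% of others. MSGN1 of that list was detected in 20% and 33.8%, whereas MESP2 was detected in 40% and 31.9%. These marker shares were not set against all genes. FOXA2 cells, 8 of which were also GSC cells, had HHEX in 50% and APOA1 in 54.5% of 22 cells, against 15.03% and 21.6% of other streak cells, and TBX6 in 59.1% against 89.5%. GATA6 was detected in 68.2% of FOXA2 cells and 62.1% of others. The pluripotency factor NANOG was detected in 18.2% of FOXA2 cells and 57.5% of others.

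GNOT1 cells, 9 of which also detected FOXA2, were set beside some of the same markers. OTX2 was detected in 37.9% of GNOT1 cells and 17.8% of other streak cells, HHEX in 27.6% and 17.8%, and EOMES in 86.2% and 59.6%. SOX3, an epiblast and preneural gene, was detected in 15 of 29 GNOT1 cells (51.7%) and 21.2% of other streak cells, and GATA6 in 37.9% and 67.8%. CXCR4 was detected in 75.9% of GNOT1 cells and 47.9% of others, and RBP4 in 24.1% and 16.4%. APOA1 went the other way, in 20.7% and 26.7%, as did TBX6, in 75.9% and 87.7%. LHX1 cells had HHEX in 18 of 35 (51.4%), against 11.4% of other cells, and GATA6 in 80% against 58.6%. Others of the endoderm list differed less, with APOA1 in 34.3% against 23.6%, RBP4 in 20% against 17.1% and CXCR4 in 54.3% against 52.1%. CDX4 was detected in 22.7% of CHRD cells and 54.2% of others, and in 22.0% of FST cells and 53.7% of others. It was detected in 13.3% of GSC cells and 49.4% of others, and in 18.2% of FOXA2 cells and 50.3% of others. WNT8A was detected in 36.4% of CHRD cells and 68.7% of others. SOX17 and TTR, defining endoderm and hypoblast genes of the list, reached 10 CPM in 0 streak cells, as did MIXL1, HAND1 and CDH5. The part of these markers in the member values was not tested.

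Cells also divided by HINTW, a gene of the female-specific W chromosome. CHRD was detected in 5 of 43 streak cells with HINTW at 700 CPM or more (11.6%, 3.89 to 25.1%) and in 33 with HINTW under 100 CPM (28.7%, 20.6 to 37.9%). The intervals overlap. FOXA2 was detected in 16.3% of the cells with high HINTW and 11.3% of those with low. Pooled CHRD was 11.2 CPM with high HINTW and 28.8 CPM with low, and the number of embryos behind either is not in the labels.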

How the data were processed

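Single-cell cDNA of dissected streak and surrounding tissue was made into Nextera XT libraries, per the labels' protocols. The submitters' processing notes name RSEM 1.2.3, Bowtie 0.12.9, for 1 cell Bowtie 0.12.8, CASAVA 1.8.2 and the build galGal4, without roles. An annotation is not given in the sources used here. As deposited by the authors, values are unscaled expected counts (64.4% of values above 0 are whole). Molecular identifiers are not described, so PCR copies are counted. The 2 tables share 20581 complete genes; 1 cut-off row was dropped, and 640 genes present in just the cSR table (3.42% of its counts) were not used here.

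The 9 members and all lists were chosen with earlier results of these data known. CPM uses the shared genes. Log2 ratios use pooled CPM and a pseudocount of 1. Intervals are exact Clopper-Pearson at 95%. Cells are not replicates, so no p was computed. Beside the members, the genes named were those of a list at 2-fold or more between cPS and cSR (at most 4), the 15 highest and 5 lowest correlates of CHRD with 1 sign in all 4 series, and 3 for each other member; other list genes and the markers were named after their values were seen. Of the genes this rule names, 2 are not reported here. No cell was removed and no doublet caller was run. No library identifier was shared between cells, and the highest correlation between 2 cells was 0.857. Counts were rounded to whole numbers for thinning and for the size factors of edgeR 4.0.16 (TMM) and DESeq2 1.42.0 (from 2075 genes above 0 in every cPS and cSR cell). Calculations used Python 3.11.15, numpy 2.4.6, pandas 2.3.3, scipy 1.17.1, matplotlib 3.10.9 and R 4.3.3. The scripts were tested on simulated data. Alternatives were other scalings, pseudocounts, detection thresholds, depths, filters, correlations, and leaving out cells, blocks or series.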

Additional observations from a re-analysis of the deposited data

How the results depend on the processing

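Of the 43 alternative values of the summary results, 37 counted as unchanged. Counts of members had to stay within 1.5 times the main value, and the share of cells detecting CHRD within its exact interval. The list of CHRD correlates had to keep at least 10 of 15 genes. The median correlation of the members with CHRD had only to stay at or above 0. The count of members at least 2-fold higher in cPS than in cSR was 4, and 2 (CHRD and GNOT1) with a pseudocount of 10 CPM. Only the number was compared, not which members made it up. With cPS1 in place of cPS it was 5, namely CHRD, FOXA2, ADMP, SHH and LHX1, without GNOT1 and GSC. With cPS2 it was 4, with ADMP and without GNOT1. With cPS3 it was 6, with NOG and without GNOT1. These 3 series counted as unchanged although the members differed. TMM factors moved the median log2 ratio of the genes at 5 CPM or more in cPS or cSR by 0.15. Relative to that shift the ratios of CHRD, FOXA2, GNOT1 and GSC were 5.47, 3.11, 2.53 and 1.29. The share of streak cells detecting CHRD was 25.1%, and 18.3% at 20 CPM, 13.7% at 50 CPM and 11.6% in cells with HINTW at 700 CPM or more. With counts thinned to 1000000 a cell, which left out 3 cells, the share was 26.2%. Of the 15 named correlates of CHRD, 7 were among the 15 highest without series cPS and 9 without series cPS2; these use fewer cells. Of 293 values for single genes, 65 moved beyond the counting interval of the main value, and none of the alternatives reversed a called value. Mean correlations and differences in share were checked only for a change of sign, so they could not be among the 65. No paired analysis was possible because the numbers in the titles name single cells and no test was made over them. SHH and NOG, detected in 2 cells and 1 cell, had shares of streak cells of 1.16% and 0.58% after thinning, against 1.14% and 0.57% before. The number of cells limits shares of 0 in cSR, whose exact intervals end at 11.6%.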
